A study of Mus musculus with 6 samples.

Results

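The genes described are 10 cytosolic heat shock chaperone genes, Hspa1a, Hspa1b, Hspa8, Hsp90aa1, Hsp90ab1, Hsph1, Dnaja1, Dnajb1, Bag3 and Hsf1, chosen by symbol out of 24525 gene rows of the deposited expression table. All 10 had a row, and all 10 passed the filter on low values (1 TPM or more in 3 or more of the libraries; TPM is a relative abundance within a library, corrected for the length of the transcript). RNA came from hearts of mice aged 3 to 6 months, with 3 libraries (4, 5 and 6) from wild type mice (WT) and 3 (7, 8 and 9) from mice lacking Mbnl1 and Mbnl2 (DKO), by their titles. The DKO genotype is Mbnl1-/-; Mbnl2cond/cond; Myh6-Cre+/-, so Mbnl1 is disrupted in every cell and Mbnl2 is targeted where the Myh6 promoter drives Cre, in cardiomyocytes. The labels give the controls as WT only, and do not say whether these carried Cre or the conditional allele. MBNL1 and MBNL2 are RNA-binding splicing regulators, and the comparison asks how the heart transcriptome differs when both are targeted.

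Cytosolic chaperones keep proteins folded and return misfolded ones to shape. HSP70 proteins (Hspa8, the constitutive form, and Hspa1a and Hspa1b, the stress-inducible forms) bind exposed hydrophobic stretches in a cycle of ATP hydrolysis. J proteins (Dnaja1, Dnajb1) bring clients and start hydrolysis, and nucleotide exchange factors (the HSP110 protein Hsph1 and the BAG-domain protein Bag3) release them. HSP90 proteins (Hsp90aa1, inducible, and Hsp90ab1, constitutive) act later, on kinases, steroid receptors and, in muscle, myosin. HSF1 is the transcription factor that raises most of these genes under proteotoxic stress by binding heat shock elements, which are alternating GAA and TTC units spaced by a pair of bases. In muscle, BAG3 joins HSP70 with small heat shock proteins at the Z-disc and hands damaged filamin to autophagy, and loss of BAG3 causes cardiomyopathy.

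Promoter sequence was at hand in a RefSeq table (GRCm38.p6, 250 bases before to 50 after an annotated start) for 6 of the 10 genes, in 10 windows. Hspa1a and Hspa1b are shown because they are near-copies, so that their separate values are uncertain, and Bag3, Dnaja1 and Hsph1 because they hold a heat shock element unit pair and were lower in every library labelled DKO. Capitals mark matches to GAANNTTC or TTCNNGAA, each of which reads the same on both strands and can overlap the other. Hspa1a is on the minus strand at chr17:34972107-34972406, Hspa1b on the minus strand at chr17:34959189-34959488, Bag3 on the plus strand at chr7:128523333-128523632, Dnaja1 on the plus strand at chr4:40722218-40722517 and Hsph1 on the minus strand at chr5:149636266-149636565.
Hspa1a: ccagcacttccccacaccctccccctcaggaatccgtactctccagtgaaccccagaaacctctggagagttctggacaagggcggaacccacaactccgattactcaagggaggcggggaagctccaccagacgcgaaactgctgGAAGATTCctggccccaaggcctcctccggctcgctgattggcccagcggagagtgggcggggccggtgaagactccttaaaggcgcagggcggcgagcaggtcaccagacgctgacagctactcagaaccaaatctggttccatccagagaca
Hspa1b: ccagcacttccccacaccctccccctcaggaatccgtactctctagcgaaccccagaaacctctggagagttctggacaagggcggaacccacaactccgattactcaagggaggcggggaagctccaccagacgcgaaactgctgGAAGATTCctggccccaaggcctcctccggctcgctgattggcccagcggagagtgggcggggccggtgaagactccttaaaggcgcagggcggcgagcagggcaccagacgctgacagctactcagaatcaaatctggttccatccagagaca
Bag3: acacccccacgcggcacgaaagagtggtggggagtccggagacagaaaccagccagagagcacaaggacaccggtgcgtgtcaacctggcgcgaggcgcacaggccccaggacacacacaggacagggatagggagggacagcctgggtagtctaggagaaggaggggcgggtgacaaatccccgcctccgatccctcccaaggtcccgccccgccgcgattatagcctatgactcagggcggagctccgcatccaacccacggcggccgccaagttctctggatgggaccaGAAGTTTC
Dnaja1: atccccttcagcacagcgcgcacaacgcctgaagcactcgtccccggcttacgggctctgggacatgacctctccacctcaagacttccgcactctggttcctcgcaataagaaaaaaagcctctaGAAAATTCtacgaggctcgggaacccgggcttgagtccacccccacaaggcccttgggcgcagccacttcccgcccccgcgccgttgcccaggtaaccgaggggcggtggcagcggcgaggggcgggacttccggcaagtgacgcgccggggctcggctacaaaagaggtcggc
Hsph1: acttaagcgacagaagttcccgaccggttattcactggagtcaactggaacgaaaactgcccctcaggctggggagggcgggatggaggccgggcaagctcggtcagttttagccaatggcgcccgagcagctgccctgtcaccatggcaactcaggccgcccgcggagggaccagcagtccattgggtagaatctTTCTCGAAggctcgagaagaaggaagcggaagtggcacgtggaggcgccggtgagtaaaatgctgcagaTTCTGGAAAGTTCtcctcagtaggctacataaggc
The Hspa1a and Hspa1b windows differed at 4 of 300 bases, and in both the GAANNTTC match was centred 100 bases upstream of the start. The match lay 120 bases upstream in Dnaja1 and 46 bases downstream of the start in Bag3. Hsph1 had a TTCNNGAA match 50 bases upstream and overlapping matches 19 and 24 bases downstream, which join into TTCNNGAANNTTC, the only 3-unit element (GAANNTTCNNGAA or TTCNNGAANNTTC) among the 6 genes. A match of 2 units was found for 5 of the 6 genes, and for 17.0% of the 27025 genes in the table. A match of 3 units was found for 1 of the 6 genes and for 0.662% of all genes. The other windows are not shown. They were a shifted one of Hsph1 with the same matches, and 2 of Dnajb1 and 2 further ones of Dnaja1, all with 0 matches. Dnajb1, which held no match, was also lower in every library labelled DKO. Only exact units were searched for, so an element with a mismatched unit would not be counted. A match describes these letters and is no evidence of binding.

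The libraries had column totals of 999963 to 999991 TPM and 14084 to 14623 genes at 1 TPM or more; since TPM drops the number of reads, the depth of these values is unknown. Of 14541 genes tested, 10.7% were called, 4.22% as lower and 6.51% as higher in DKO (limma on log2(TPM + 1), Benjamini-Hochberg (BH) adjusted p under 0.05). Mbnl1 (102 to 108 TPM in DKO, 145 to 161 in WT) was lower and Mbnl2 (227 to 245 against 149 to 189) was higher in libraries labelled DKO, and a gene-level sum checks neither deletion. The title and the source of DKO 7 call it DKO while its genotype tag reads WT, and it was used as DKO. Its Mbnl1 (102 TPM) and Mbnl2 (227 TPM) values lay with those of DKO 8 and DKO 9 and outside the WT range. Xist, the RNA of the inactive X chromosome, stood at 152 TPM in DKO 7 and 174 TPM in DKO 8 and at no more than 0.401 TPM elsewhere, so its presence and the group are partly confounded. WT 4 stood apart in stress-responsive genes: 12 immediate early genes, which are induced quickly and transiently by stimuli, summed to 748 TPM in WT 4 against 316 and 378 in WT 5 and WT 6 and 250 to 346 in DKO. Cardiomyocyte markers, 10 of 10 tested, summed to 79842 to 82893 TPM in WT and 79061 to 79692 in DKO. In bulk tissue, fewer cells of a type and less RNA per cell cannot be told apart.

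Heat shock chaperone transcripts were lower or level in the libraries labelled DKO, and none was called higher. Bag3 and the J protein gene Dnaja1 fell and passed the test, 2 of 10 genes lower and 0 higher, against 4.22% and 6.51% of all genes tested. The log2 difference was below 0 for 9 of the 10 genes, against 45.3% of all genes, with a median of -0.34 over the 10 and 0.03 over all genes. In 5 genes (Hspa1a, Hsph1, Dnaja1, Dnajb1 and Bag3) the 3 DKO values lay entirely below the 3 WT values, which held in that direction for 13.8% of all genes and in either direction for 33%. The 10 genes share regulation and libraries, so these counts are not independent of each other. The labels do not say that each library is a different animal, so the p-values reflect only how these libraries vary. The 2 calls were not stable: Dnaja1 was lost in each of the 6 fits that left out 1 library (limma, BH adjusted p = 0.0516 to 0.101). Bag3 was lost in 5 of them (limma, BH adjusted p up to 0.0859) and stayed called without WT 5 (0.0493). The log2 differences in these fits were -0.70 to -0.48 for Dnaja1 and -0.41 to -0.31 for Bag3. Both were also lost with DKO 7 counted as WT (limma, BH adjusted p = 0.501 for Dnaja1 and 0.627 for Bag3). Over all genes, 1 was called with DKO 7 as WT and 628 to 876 without 1 library, against 1560 in the main fit. With a term for Xist, the group difference is that of DKO 9 alone from the WT mean (-0.71 for Dnaja1 and -0.37 for Bag3).

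**Figure D1:**
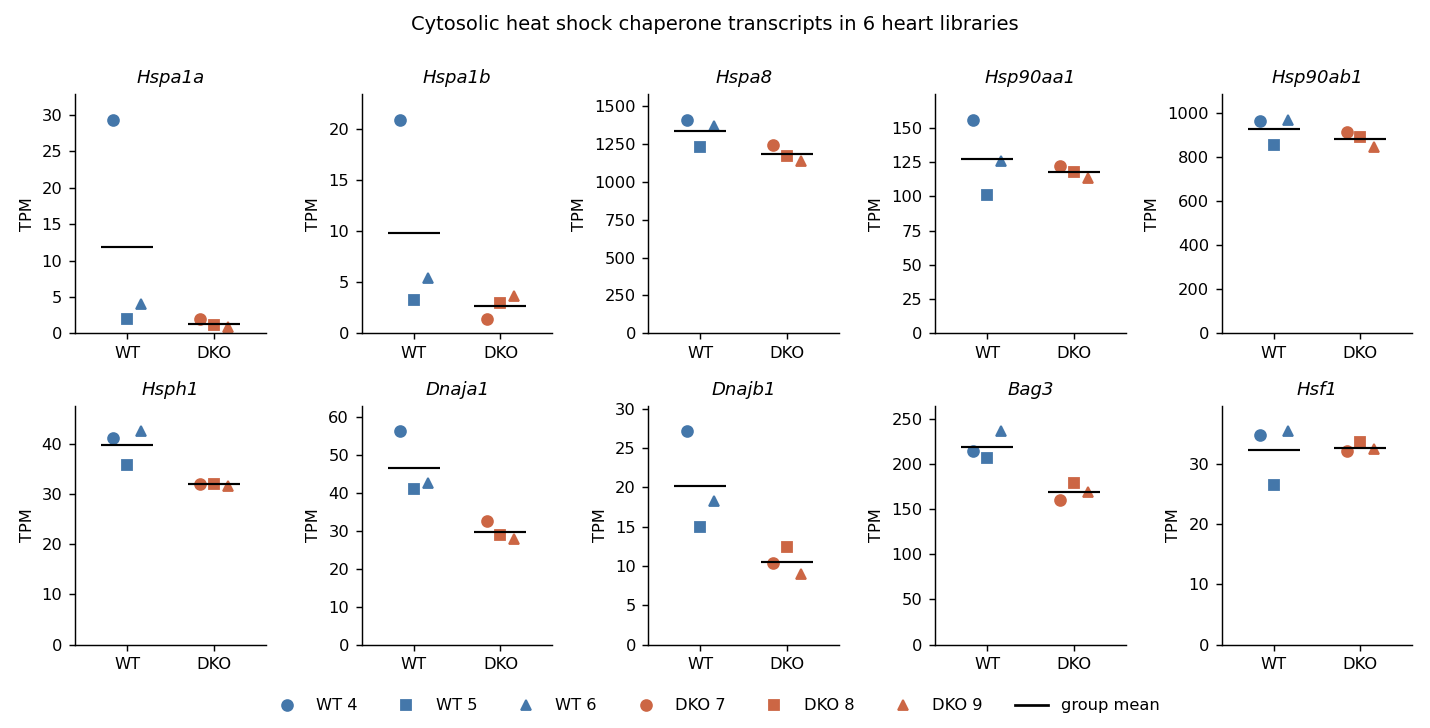
TPM of each of the 10 genes (y axis, from 0, own scale per panel) in the 3 WT (blue) and 3 DKO (orange) libraries, with symbols for single libraries and a line at the group mean. Bag3, Dnaja1, Dnajb1, Hsph1 and Hspa1a have no overlap between groups, and WT 4 is far above all others for Hspa1a (29.3 TPM) and Hspa1b (20.9 TPM).

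The HSP70 genes spanned a wide range of levels. Hspa8 (chromosome 9, 40801276 to 40805202), the constitutive form, was the most abundant of the 10, with 1410.5, 1229 and 1373 TPM in WT 4, 5 and 6 and 1244, 1175 and 1139 TPM in DKO 7, 8 and 9. WT 5 fell among the DKO values, so the groups overlapped. The log2 difference of Hspa8 was -0.17 (SE 0.07, 95% interval -0.35 to 0.01; limma, BH adjusted p = 0.198), 11.3% lower in DKO.

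The stress-inducible genes Hspa1a (chromosome 17, 34969359 to 34972156) and Hspa1b (chromosome 17, 34956429 to 34959238) were the least abundant. Hspa1a had 29.3, 2.00 and 4.06 TPM in WT 4, 5 and 6 and 1.96, 1.16 and 0.902 TPM in DKO 7, 8 and 9. Hspa1b had 20.9, 3.27 and 5.39 TPM in WT and 1.38, 2.92 and 3.68 TPM in DKO. In both, WT 4 was the high library and WT 5 lay close to DKO or within it: Hspa1a of WT 5 and DKO 7 nearly touched, and the Hspa1b groups overlapped. The log2 differences, -1.75 (SE 0.80; limma, BH adjusted p = 0.218) for Hspa1a and -1.26 (SE 0.60; limma, BH adjusted p = 0.235) for Hspa1b, did not pass. The ratio of DKO to WT means was 0.114 for Hspa1a and became 0.443 without WT 4, and that of Hspa1b went from 0.270 to 0.614.

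Reads of this gene pair are split by estimate. Of the 75-base windows of the GENCODE M21 transcripts (2967 bases for Hspa1a, 2803 for Hspa1b), 1524 were found in the other transcript too, 52.7% of those of Hspa1a and 55.8% of those of Hspa1b. The sum of both genes depends on the split only through their unequal transcript lengths, by which TPM divides, and was 50.2, 5.27 and 9.45 TPM in WT 4, 5 and 6 and 3.34, 4.08 and 4.58 TPM in DKO 7, 8 and 9. Every DKO library was thus below every WT library, by a margin of under 1 TPM between DKO 9 and WT 5. The log2 difference of the sum was -1.59 (SE 0.71, 95% interval -3.28 to 0.10; limma, BH adjusted p = 0.209), and the ratio of 0.185 became 0.543 without WT 4.

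The J protein genes Dnaja1 and Dnajb1 were lower in each library labelled DKO. Dnaja1 (chromosome 4, 40722468 to 40734965) had 56.3, 41.03 and 42.5 TPM in WT 4, 5 and 6 and 32.7, 28.9 and 27.8 TPM in DKO 7, 8 and 9. Dnaja1 was 36.1% lower in DKO (log2 difference -0.62, SE 0.14, BH adjusted p = 0.0361 by limma). Dnajb1 (chromosome 8, 83608175 to 83612653), the J protein most closely tied to the heat shock response, had 27.1, 14.9 and 18.3 TPM in WT and 10.3, 12.4 and 8.93 TPM in DKO. WT 4 was again the highest library for both genes, and the groups did not overlap. The larger difference of Dnajb1, -0.84 (SE 0.23), missed the threshold (limma, BH adjusted p = 0.0619).

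The nucleotide exchange factors showed smaller and tighter differences. Bag3 (chromosome 7, 128523583 to 128546981) had 215, 207 and 237 TPM in WT 4, 5 and 6 and 160.2, 179.6 and 169.8 TPM in DKO 7, 8 and 9. For Bag3 the high WT library was WT 6, not WT 4, and the gene was 22.6% lower in DKO (log2 difference -0.37, SE 0.08, BH adjusted p = 0.0302 by limma). Hsph1 (chromosome 5, 149616843 to 149636498), the HSP110 exchange factor, had 41.3, 35.8 and 42.6 TPM in WT and 32.1, 32.1 and 31.7 TPM in DKO. The 3 DKO values of Hsph1 were nearly equal and all under the WT range, and the log2 difference of -0.31 (SE 0.09) did not pass (limma, BH adjusted p = 0.0754).

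The HSP90 genes and the regulator Hsf1 overlapped between groups. Hsp90ab1 (chromosome 17, 45567778 to 45573261), the constitutive form, had 963, 853 and 967 TPM in WT 4, 5 and 6 and 914, 887 and 846 TPM in DKO 7, 8 and 9, a log2 difference of -0.07 (95% interval -0.24 to 0.10; limma, BH adjusted p = 0.592). Hsp90aa1 (chromosome 12, 110691036 to 110696395), the inducible form, had 156, 101 and 126 TPM in WT and 122, 118 and 114 TPM in DKO, a log2 difference of -0.09 (95% interval -0.44 to 0.26; limma, BH adjusted p = 0.749). All 3 DKO values of Hsp90aa1 lay between those of WT 5 and WT 6. Hsf1 (chromosome 15, 76477362 to 76501155) had 34.7, 26.5 and 35.4 TPM in WT and 32.04, 33.6 and 32.3 TPM in DKO, a log2 difference of 0.03 (95% interval -0.26 to 0.32; limma, BH adjusted p = 0.901). Its transcript level says nothing of HSF1 activity, which is set on the protein.

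**Figure D2:**
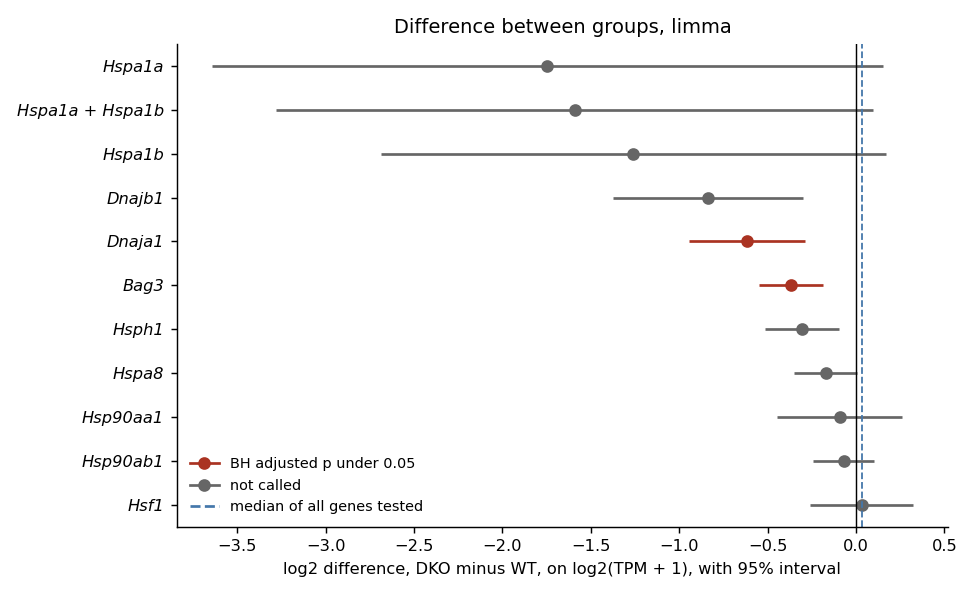
Log2 difference between groups (x axis, DKO minus WT on log2(TPM + 1), with 95% interval from limma) for the 10 genes and for the sum of Hspa1a and Hspa1b; red marks genes past the threshold, and the dashed line the median of all genes tested (0.03). Estimates run from -1.75 for Hspa1a, with the widest interval, to 0.03 for Hsf1, and Bag3 and Dnaja1 are in red.

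An exact two-sided permutation test over libraries gave p = 0.1, the smallest value that 3 against 3 libraries allow, for Hspa1a, Hsph1, Dnaja1, Dnajb1, Bag3 and the summed Hspa1a and Hspa1b. It gave 0.2 for Hspa1b and Hspa8, 0.3 for Hsp90ab1, 0.7 for Hsp90aa1 and 1 for Hsf1.

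The order of TPM levels was the same in both groups for the abundant genes: Hspa8, Hsp90ab1, Bag3 and Hsp90aa1, with no overlap of ranges between neighbours. Below these, WT had Dnaja1 (mean 46.6 TPM), Hsph1 (39.9), Hsf1 (32.2), Dnajb1 (20.1), Hspa1a (11.8) and Hspa1b (9.85), where the ranges of neighbours overlapped except between Hsph1 and Hsf1. In DKO the order was Hsf1 (32.7), Hsph1 (32.0), Dnaja1 (29.8), Dnajb1 (10.6), Hspa1b (2.66) and Hspa1a (1.34), with overlap from Hsf1 to Dnaja1 and between the HSP70 copies. The WT order of these copies came from WT 4. Hspa1b was above Hspa1a in WT 5, WT 6, DKO 8 and DKO 9, and below it in WT 4 and DKO 7. Hspa8 and Hsp90ab1 made up 80.3% to 82.8% of the TPM of the 10 genes in WT and 83.5% to 84.6% in DKO. The 10 genes together took 0.251% to 0.295% of all TPM in WT and 0.237% to 0.255% in DKO.

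Ratios within a library do not depend on how its column is scaled. Dnaja1 per 1000 Hspa8 transcripts was 39.9, 33.4 and 31.0 in WT 4, 5 and 6 and 26.3, 24.6 and 24.4 in DKO 7, 8 and 9. Dnajb1 per 1000 Hspa8 was 19.2, 12.1 and 13.3 in WT and 8.32, 10.5 and 7.84 in DKO. The Dnaja1 and Dnajb1 transcripts were thus lower relative to that of Hspa8 in each DKO library. So was that of Hsph1 (29.2 to 31.05 against 25.8 to 27.9 per 1000 Hspa8). Bag3 per 1000 Hspa8 overlapped (153 to 173 in WT, 129 to 153 in DKO). Hsp90ab1 per 1000 Hspa8 was higher in DKO (735 to 755) than in WT (683 to 704), and Hsp90aa1 per 1000 Hsp90ab1 overlapped (119 to 162 in WT, 133 to 134 in DKO). Of 7 ratios, the 4 without overlap reached an exact permutation p = 0.1, the smallest possible, and 0.175 after BH adjustment over the 7.

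**Figure D3:**
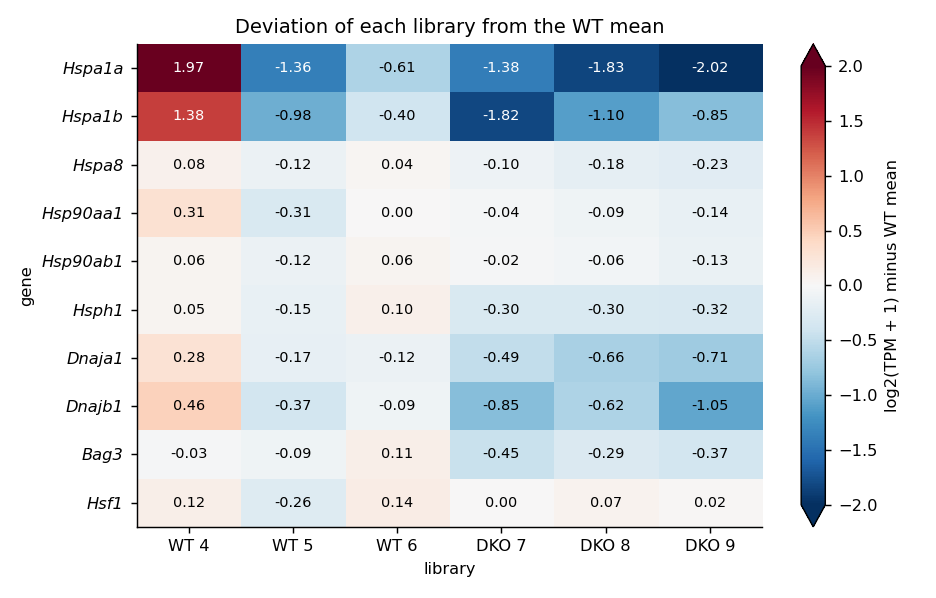
Deviation of each library from the WT mean on log2(TPM + 1) for the 10 genes; red is above and blue below, with the value in each cell and colours saturating at 2. WT 4 is the red column for Hspa1a (1.97) and Hspa1b (1.38), and every gene except Hsf1 is below 0 in DKO 7, 8 and 9.

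Relative to the WT mean, WT 4 was 1.97 above for Hspa1a, 1.38 for Hspa1b, 0.46 for Dnajb1, 0.31 for Hsp90aa1 and 0.28 for Dnaja1 on the log2(TPM + 1) scale, but 0.05 above for Hsph1 and -0.03 from it for Bag3, and WT 5 was below it for all 10 genes (-0.09 for Bag3 to -1.36 for Hspa1a). Over the 6 libraries, Pearson's r was 0.95 between Dnaja1 and Dnajb1, 0.94 between Hsph1 and Bag3, 0.91 between Hspa1a and Dnajb1 and 0.09 between Dnaja1 and Hsf1. These are descriptions that include the difference between groups, over libraries that share their scaling. Among 78 candidates from the 10 genes and the lists of HSP70, J protein, cochaperone, HSF and target genes, the gene most like Bag3 was the HSP90 cochaperone Chordc1 (r = 0.96), the one most like Hsph1 was Dnaja4 (0.97) and the one most like Hsp90ab1 was the kinase-specific cochaperone Cdc37 (0.95). Hspa8 was most like Hspe1 (0.93), Hsp90aa1 most like Hspa12a (0.93), Hspa1a most like Dnajb6 (0.93), Hspa1b most like Dedd2 (0.92) and Hsf1 most like Hspbp1 (0.90).

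The wider chaperone network had calls in both directions. Of 83 genes tested in 7 lists of HSP70 relatives, J proteins, cochaperones, heat shock factors, other HSF1 targets, the TRiC chaperonin and prefoldin, 2 were higher and 6 lower, 9.64% called against 10.7% of all genes, with a median log2 difference of 0.02. With DKO 7 counted as WT none of the 83 was called. HSP90 cochaperones gave 1 higher and 3 lower of 21. The immunophilin Fkbp4 (FKBP52), which sits on HSP90 in steroid receptor complexes, fell from 302 ± 20.4 to 170.4 ± 14.0 TPM (SD, n = 3 libraries per group, here and below; log2 difference -0.82, SE 0.08, BH adjusted p = 0.00448 by limma). Ahsa1, the activator of the HSP90 ATPase, fell from 124 ± 5.44 to 92.9 ± 3.50 TPM and its paralog Ahsa2 from 22.0 ± 0.716 to 15.7 ± 0.788 TPM. Nudc rose from 61.3 ± 3.59 to 82.1 ± 5.93 TPM. Fkbp4 stayed called in each of the 6 fits that left out 1 library, Ahsa1 in 5, Nudc in 2 and Ahsa2 in 0.

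Other cytosolic J proteins gave 1 higher and 2 lower of 12, against 6.51% and 4.22% of all genes tested. Dnajb2, a J protein that sorts HSP70 clients to the proteasome, fell from 73.3 ± 1.48 to 44.0 ± 4.24 TPM (log2 difference -0.73, SE 0.09, BH adjusted p = 0.00625 by limma), and Dnaja4 fell from 76.0 ± 3.20 to 61.0 ± 1.26 TPM. Dnajc7, which binds both HSP70 and HSP90, rose from 65.7 ± 3.54 to 88.07 ± 5.86 TPM. Dnajb2 was called in 6, Dnajc7 in 2 and Dnaja4 in 0 of the 6 fits that left out 1 library. Members of this family other than Dnaja1 and Dnajb1 were thus called in both directions.

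Other HSP70 and HSP110 genes gave 0 called of 7, with Hspa12b at 36.3 ± 2.09 TPM (WT) and 30.04 ± 3.13 TPM (DKO; BH adjusted p = 0.148 by limma), Hspa1l, the testis-enriched HSP70 beside the inducible copies, at 6.44 ± 2.04 and 5.15 ± 1.47 TPM, and Hspa2 at 5.96 ± 0.518 and 5.40 ± 1.10 TPM. BAG proteins and other HSP70 cochaperones gave 0 of 12. Tomm34 among them had 23.5 ± 3.97 TPM (WT) and 33.5 ± 2.31 TPM (DKO; BH adjusted p = 0.0595 by limma), the ubiquitin ligase Stub1 (CHIP) 76.9 ± 5.30 and 82.3 ± 3.04 TPM and Bag1 212 ± 8.02 and 222 ± 9.67 TPM. Heat shock factors and regulators gave 0 of 8, with Hsbp1l1 at 5.72 ± 2.50 and 10.7 ± 0.919 TPM, Dedd2 at 24.1 ± 4.98 and 16.7 ± 2.42 TPM and Sirt1 at 15.4 ± 1.72 and 12.1 ± 1.37 TPM; Hsf5 did not pass the filter. TRiC and prefoldin subunits, which fold actin and tubulin, gave 0 of 14, with 2 of 14 differences below 0, and Tcp1 (140.5 ± 10.1 and 165 ± 4.87 TPM), Pfdn1 (67.9 ± 7.36 and 86.07 ± 8.46 TPM) and Pfdn5 (179 ± 21.4 and 221 ± 20.5 TPM) had its smallest p-values.

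Among 19 other targets of HSF1, 0 were higher and 4 lower, namely Fkbp4, Ahsa1, Dnaja4 and the mitochondrial chaperonin Hspd1 (from a mean of 374 to 297 TPM; called in 5 of the 6 fits that left out 1 library), and the median log2 difference was -0.08. Over all genes tested, 4.22% were called lower and 6.51% higher. Fkbp4, Ahsa1 and Dnaja4 were already counted above, among the HSP90 cochaperones or J proteins. The list thus held members on both sides of 0, 11 of 19 below it, against 45.3% of all genes. The DKO values lay entirely below the WT values for 9 of the 19 genes and entirely above them for 2. Over all genes this held for 13.8% in the lower direction and for 33% in either direction. The partners of BAG3 in selective autophagy gave 0 called of 12. Its small heat shock partner Hspb8 had 552, 428 and 570 TPM in WT 4, 5 and 6 and 363, 441 and 401 TPM in DKO 7, 8 and 9 (log2 difference -0.36; limma, BH adjusted p = 0.129), with DKO 8 above WT 5. Cryab had 2299 ± 311 and 1780 ± 273 TPM and Wipi1, an autophagosome protein, 116 ± 4.09 and 99.5 ± 2.47 TPM (limma, BH adjusted p = 0.144 and 0.0715).

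**Figure D4:**
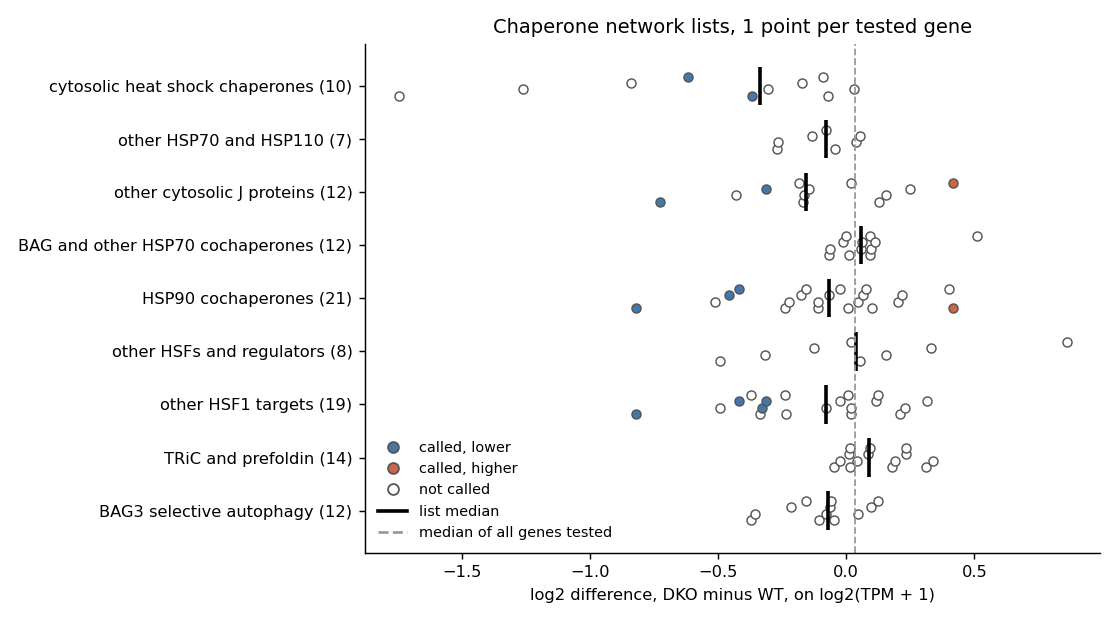
Log2 difference between groups (x axis, DKO minus WT on log2(TPM + 1)) for each tested gene of 9 lists (number tested in brackets); blue points were called lower, orange higher and open points not called, with a bar at the list median and a dashed line at the median of all genes tested (0.03). Among these 9 lists the cytosolic heat shock chaperones have the lowest median (-0.34), and called genes of other lists lie on both sides of 0. Mitochondrial chaperones, not drawn, have a median of -0.29.

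Chaperones of other compartments are given for comparison, beside 4.22% of all genes tested called lower and 6.51% called higher. Small heat shock proteins gave 0 called of 7 (Hspb1 had 362 ± 31.4 in WT and 395 ± 31.9 TPM in DKO), endoplasmic reticulum chaperones 1 lower of 12 (calnexin, Canx, 280.1 ± 23.1 to 179.7 ± 8.95 TPM) and mitochondrial chaperones 2 lower of 8 (Hspd1, given above, and Grpel1, 48.8 ± 2.13 to 39.0 ± 0.370 TPM), with median log2 differences of 0.12, -0.05 and -0.29. Canx stayed called in 6 and Grpel1 in 0 of the 6 fits that left out 1 library.

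Several other gene groups differed along with the chaperones, and their part in the chaperone differences was not tested. Their counts stand beside 4.22% of all genes tested called lower and 6.51% called higher. Immediate early genes gave 1 higher (Ier3) and 0 lower of 11 tested, with a median log2 difference of -0.62, and the median deviation from the WT mean was 0.82 in WT 4, -0.77 in WT 5, -0.12 in WT 6 and -1.08 to -0.47 in DKO. WT 4 was thus high both for these genes and for Hspa1a, Hspa1b and Dnajb1, with Fos at 44.1 TPM in WT 4 and 1.17 to 6.47 TPM in the other 5 libraries. Dusp1, which like Ier3 was among the smallest p-values of this list, had 90.9 ± 27.3 and 49.1 ± 7.72 TPM (BH adjusted p = 0.0507 by limma). Of 15 clock genes, 3 were higher and 10 lower, among them Npas2 (3.32 ± 0.626 to 10.7 ± 0.905 TPM) and Ciart (from a mean of 16.0 to 1.77 TPM); the labels give no time of harvest. Npas2 and Ciart stayed called in 6 and Ier3 in 2 of the 6 fits that left out 1 library.

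Cell type markers differed as well, beside the same 4.22% of all genes tested called lower and 6.51% called higher. Fibroblast markers gave 6 higher of 10, Postn and Mfap5 with the smallest p-values, and summed to 952 to 1011 TPM in WT and 1350.3 to 1648 in DKO, and macrophage markers gave 5 higher of 10, led by C1qa and C1qb, with sums of 398 to 555 and 657 to 903 TPM. Endothelial markers gave 2 lower of 10 (Tie1 and Cdh5) with sums of 1833 to 2275 and 1706 to 1790.0 TPM. Cardiomyocyte markers gave 2 lower of 10 (Tnni3 and Ryr2), with a median log2 difference of -0.04. Of these 10 differences 6 were below 0, against 45.3% of all genes. Actc1 (10365 ± 809 and 11973 ± 487 TPM) and Tnnc1 (4645 ± 300 and 5529 ± 248 TPM) were above 0 and not called. Erythroid genes, led by Hbb-bt and Hbb-bs, gave 0 of 5 with sums of 6042 to 38458 and 1781 to 6763 TPM. Skeletal muscle markers gave 2 lower (Acta1 and Mb) of 4 tested (of 9), with sums of 17517 to 19697 and 14064 to 14749 TPM. These sums were made mostly of genes that the heart expresses too, such as Ckm and Mb. Myh1, Myh2, Myh4, Tnni2 and Actn3 did not pass the filter. Acta1 (1035 TPM), Tnnt3 (5.50), Actn3 (2.35), Myh4 (1.70), Myh1, Myh2 and Ckm were highest in WT 4. Tnni2 was highest in DKO 7 and Mb in WT 6. Any link to the high chaperone values of WT 4 was not tested. Of the called markers named here, Postn, Mfap5, C1qa, Tnni3 and Acta1 stayed called in each of the 6 fits that left out 1 library, Ryr2 in 5, C1qb in 3, Tie1 and Mb in 1 and Cdh5 in 0. WT 5, which had the lowest WT value of each of the 10 chaperone genes, Bag3 and Dnaja1 included, had the highest erythroid sum.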

How the data were processed

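Total RNA from heart, in 6 libraries, was sequenced with strand-specific libraries in paired reads of 75 bases, per the labels. The authors deposited 1 table of TPM values, 1 per gene and library. The submitters' processing notes name kallisto 0.44.0, bcl2fastq and mm10; for the annotation and the summing to genes, nothing is stated in them or in the labels. kallisto splits reads among near-identical genes by estimate. TPM keeps no counts, so no counting interval is given.

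Groups follow the titles. The 14541 genes that reached 1 TPM in 3 or more libraries entered limma 3.58.1 (eBayes with trend, R 4.3.3) on log2(TPM + 1), which understates changes of genes at low TPM, and p-values were BH adjusted over these genes (threshold 0.05). The code was tested on simulated data. The members, the gene lists and the alternatives were chosen with earlier results of these data known. Named genes are the 10 members, the 3 genes with the smallest p in each chaperone list, the 2 smallest in the immediate early, clock and cell type lists, and the gene most correlated with each member. Nudc, Fos, Actc1, Tnnc1, Ckm and the other skeletal muscle markers were named after their values were seen. The search for 2-unit elements was added then. Gene positions and promoters are from RefSeq, GRCm38. Figures were drawn with matplotlib 3.10.9.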

Additional observations from a re-analysis of the deposited data

How the results depend on the processing

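The counts of called genes (all genes, the 10 chaperones and the wider network), the log2 differences of the 10 genes and that of the summed Hspa1a and Hspa1b were recomputed under 10 other settings and without each of the 6 libraries; ratios, level orders, correlations and the counts of the other lists were not. The log2 differences of Bag3, Dnaja1, Dnajb1, Hsph1, Hspa8, Hsp90ab1 and the summed Hspa1a and Hspa1b stayed below 0 in all 16, and those of Hspa1a and Hspa1b in the 15 that kept them (a 5 TPM filter removed both). Hsf1 turned to -0.0026 with median-ratio scaling, -0.014 with array weights, and ranged from -0.10 (without WT 5) to 0.10 when 1 library was left out; Hsp90aa1 then ranged from -0.25 to 0.063 (without WT 4).

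The number of the 10 genes called, 2 in the report, was 1 without a filter (Bag3; Dnaja1 had limma BH adjusted p = 0.0528), 4 when haemoglobin and structural RNA were left out or array weights were used (Hsph1 and Dnajb1 added), 3 with median-ratio scaling (Hsph1 added) or quantile scaling (Dnajb1 added), 2 with a pseudocount of 0.1 or a 5 TPM filter, 0 with eBayes without trend (Dnaja1 0.0616, Bag3 0.0763), 0 with replicate 7 as WT, 0 with a term for Xist, and 0 to 1 without 1 library. Of the wider network, 8 genes were called, against 9 with a 5 TPM filter, 10 with quantile scaling, array weights or haemoglobin and structural RNA left out, 4 with eBayes without trend, 0 with replicate 7 as WT, 1 with a term for Xist (Dnajb2) and 4 to 6 without 1 library. Over all genes 1560 were called, against 1 with replicate 7 as WT, 92 with a term for Xist and 628 to 876 without 1 library. Where fewer samples or a further term entered, fewer degrees of freedom were left; otherwise the cause was not tested. No paired analysis was possible because the groups share no replicate numbers. With 3 libraries a group and unknown depth, the differences of Hspa1a and Hspa1b, at 0.902 to 5.39 TPM outside WT 4, are the least certain.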
